A study of Mus musculus with 8 samples.

Results

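The 9 genes described here encode structural and membrane proteins of the photoreceptor outer segment: Prph2, Rom1, Rp1, Abca4, Prom1, Cdhr1, Fscn2, Tulp1 and Impg1. They were taken by name, as every probe set that the platform annotation gives to these symbols, which came to 11 probe sets of 45037 and 9 genes of 18193 with a name of their own. The samples were mouse retinas at postnatal day 40 from the strain labelled BALB/c AJ, described as dissected free of retinal pigment epithelium (RPE). Each was hybridised as total RNA to 1 Affymetrix 3' expression array. Arrays fell by genotype label into wild type (3 arrays, wt/wt), heterozygous Nxnl1 null (2 arrays, ko/wt) and homozygous Nxnl1 null (3 arrays, ko/ko). All groups shared the strain, the age and the light cycle. The labels name no agent and no promoter or cell type that would limit the null allele. Sex is not among the labels used here. The Y-linked gene Eif2s3y had the largest positive difference of all 18193 genes, 2.92 (log2) for homozygous and 2.93 for heterozygous minus wild type. Whether the sex of the mice differed between groups was not tested. Whether each array stands for its own animal or for a pool is not in the labels, so the p-values measure only the spread between these samples, and that spread may be technical.

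The outer segment is a modified cilium that rods and cones fill with stacked membrane discs, which carry the phototransduction proteins and are renewed throughout life. Discs form at the base, where membrane evaginates around an actin core. Their rims are held in a tight curve by tetraspanin proteins, a microtubule axoneme keeps the stack in line, and a proteoglycan matrix surrounds it. Loss of any of several of these proteins leads to retinal degeneration. Nxnl1 encodes rod-derived cone viability factor, which supports cone survival.

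The RefSeq promoter table (GRCm38.p6) held 8 of the 9 genes, with 2 windows for Prom1. They lie on mouse chromosomes 3 (Abca4), 5 (Prom1), 9 (Impg1), 11 (Fscn2), 14 (Cdhr1), 17 (Prph2 and Tulp1) and 19 (Rom1). The letters TAATC, the core bound by the photoreceptor homeodomain factor Crx, were searched on both strands (GATTA on the other) in the 250 bases before the start. They occurred in 19.8% of all 32851 windows and in windows of 4 of the 8 genes: Prph2, Abca4, Impg1 and 1 of the windows of Prom1. Prph2, Abca4 and Impg1 each held 2 matches, and Rom1, Cdhr1, Fscn2 and Tulp1 held none. A match is a run of letters and says nothing of binding, and a window without one says nothing of the factor. Below are the windows of Prph2, which stood apart on 1 array, of Abca4, which also has a pair of matches, and of Fscn2, which had the widest range among the brighter probe sets and has no match. The sequences run 5′ to 3′ on the gene's own strand and capitals mark the matches.
Prph2: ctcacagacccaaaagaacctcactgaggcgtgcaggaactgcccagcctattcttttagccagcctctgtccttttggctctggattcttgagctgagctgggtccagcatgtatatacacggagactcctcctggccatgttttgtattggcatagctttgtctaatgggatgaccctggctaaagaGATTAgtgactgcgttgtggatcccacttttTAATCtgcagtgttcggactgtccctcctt
Abca4: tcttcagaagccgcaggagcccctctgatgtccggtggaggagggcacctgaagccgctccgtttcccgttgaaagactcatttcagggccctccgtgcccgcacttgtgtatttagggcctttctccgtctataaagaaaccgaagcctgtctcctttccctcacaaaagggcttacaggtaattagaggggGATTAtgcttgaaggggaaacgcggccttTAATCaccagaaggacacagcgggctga
Fscn2: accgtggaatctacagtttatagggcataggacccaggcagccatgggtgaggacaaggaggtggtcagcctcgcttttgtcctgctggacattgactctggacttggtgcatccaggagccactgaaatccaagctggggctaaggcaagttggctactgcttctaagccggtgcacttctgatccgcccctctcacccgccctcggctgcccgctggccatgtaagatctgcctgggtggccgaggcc
These windows are chr17:46910228-46910477 (plus strand) for Prph2, chr3:122044210-122044459 (plus strand) for Abca4 and chr11:120361284-120361533 (plus strand) for Fscn2. Counted from the start of the gene, the matches began at -61 and -30 in Prph2, at -57 and -28 in Abca4, at -68 and -42 in Impg1 and at -28 in Prom1.

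Values are the authors' RMA expression levels on the log2 scale, where 1 unit is a doubling. Levels of different genes are not compared, because each probe set has its own response. The deleted gene went against the label on 2 arrays. Nxnl1 read 9.22, 8.87 and 8.65 in wild type, 8.65 and 6.75 on heterozygous arrays 1 and 2, and 6.13, 8.76 and 6.13 on homozygous arrays 1, 2 and 3. Heterozygous array 2 and homozygous array 2 are called by their labels throughout, and results that rest on them are also given without them. Whether the labels of these 2 arrays were exchanged was not tested, and an exchange would change every heterozygous and homozygous mean given here. The rod markers measured (4 of 6 listed) had a log2 summed level of 16.02 to 16.09 in wild type, 16.05 to 16.11 in heterozygotes and 16.06 to 16.16 in homozygotes. Cone markers (5 of 6) were at 13.74 to 13.81, 13.67 to 13.99 and 13.80 to 13.90 in the same order. RPE markers (10 of 10) were at 13.02 to 13.67, 12.74 to 12.82 and 12.63 to 13.43. Lens markers (8 of 8) were at 8.10 to 12.12, 8.28 to 11.43 and 8.02 to 12.62. Of the RPE markers, Rpe65 read 9.16 to 10.48 over the 8 arrays and Tyr 4.61 to 5.12, against a median of 6.19 over all probe sets. How much RPE was left in retinas described as free of it was not tested. RNA quality was read from actin, as the level of its 5' control probe set less that of its 3' one, which is lower in degraded RNA. It was lowest on wild-type array 1 (-1.81) and homozygous array 1 (-1.74), and lay between -1.26 and -0.69 on the other 6.

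**Figure D1:**
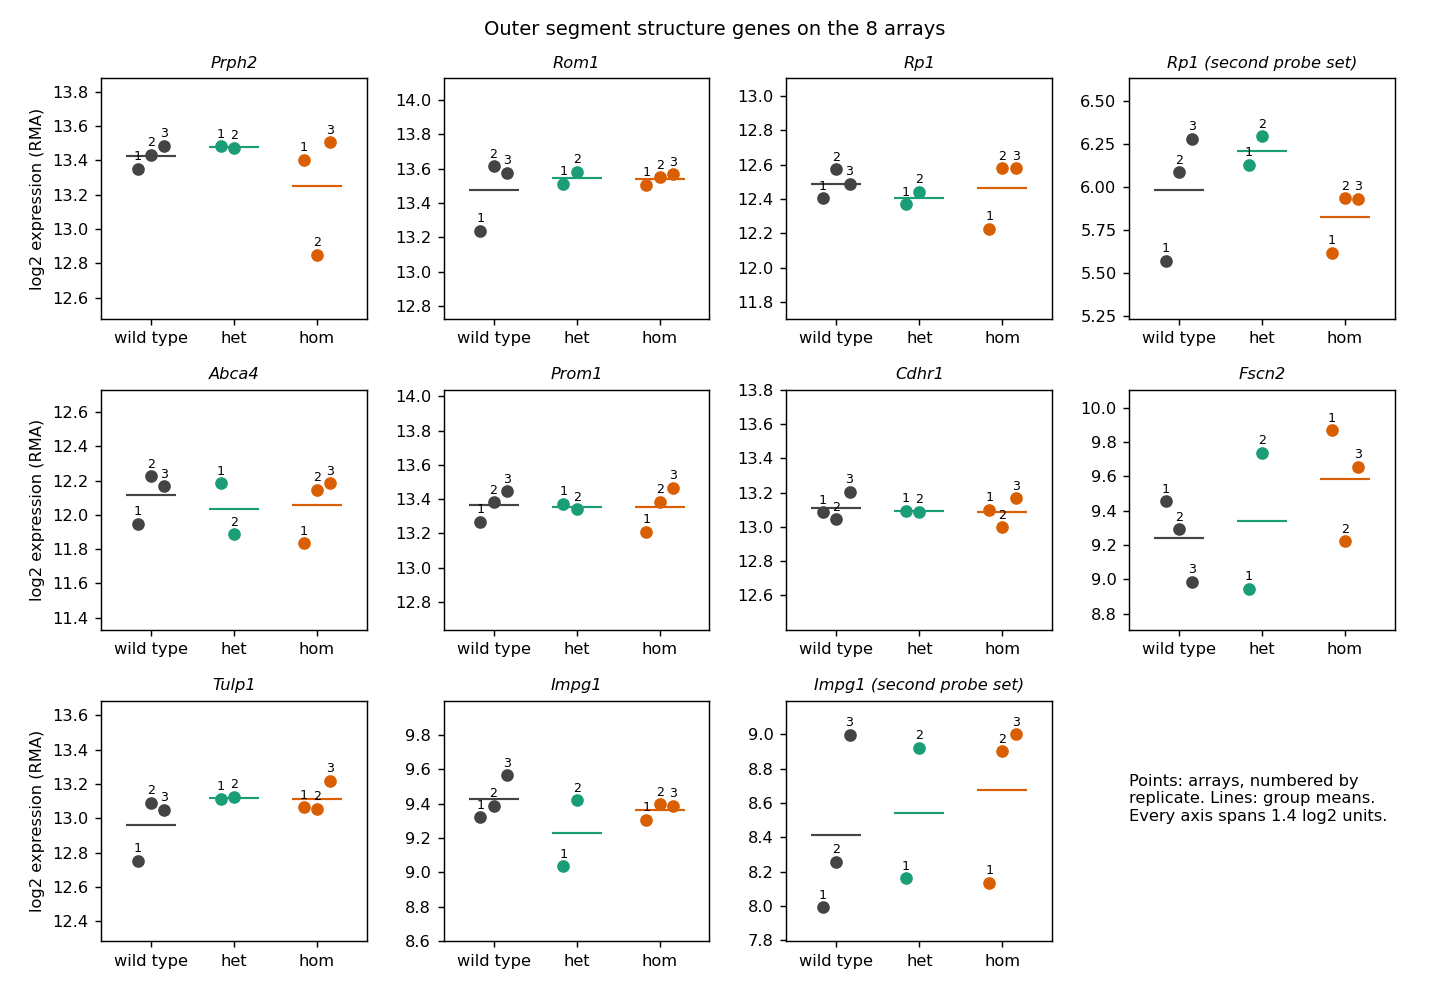
Log2 expression (vertical axis) of the 11 probe sets of the outer segment structure genes by group (horizontal axis), 1 point per array numbered by replicate, with lines for group means. Prph2 on homozygous array 2 (12.85) lies below all other Prph2 values, and Fscn2 spreads from 8.94 to 9.87.

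Prph2 encodes peripherin-2, the tetraspanin that shapes disc rims. Its probe set (1420511_at) read 13.35, 13.43 and 13.49 in wild type, 13.48 and 13.48 in heterozygotes and 13.41, 12.85 and 13.51 on homozygous arrays 1, 2 and 3. Homozygous array 2 alone was low, 0.60 below the mean of the 7 others (-0.60), while the remaining 7 arrays lay between 13.35 and 13.51 and overlapped across groups. The group means were 13.42 ± 0.068 (SD, n = 3) in wild type, 13.48 ± 0.0057 (SD, n = 2) in heterozygotes and 13.25 ± 0.35 (SD, n = 3) in homozygotes. Homozygous minus wild type came to -0.17 (SE 0.16, 95% interval -0.55 to 0.21, limma adjusted p 0.9999). Without homozygous array 2 it was 0.032, so that array set its sign and size. On that array Nxnl1 was at the wild-type level, and the other 8 genes, each at its brighter probe set, lay between -0.20 and 0.14 of the mean of the 7 other arrays.

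Rom1 encodes the tetraspanin partner of peripherin-2 in the rim. It read 13.24, 13.61 and 13.58 in wild type, 13.51 and 13.58 in heterozygotes and 13.51, 13.55 and 13.57 in homozygotes (1448996_at). Wild-type array 1 was the low one, and the other 7 lay within 13.51 to 13.61. Homozygous against wild type differed by 0.065 (SE 0.12, 95% interval -0.20 to 0.33) and by -0.054 without wild-type array 1. The arrays on which the rim partners were low were thus different ones, homozygous 2 for Prph2 and wild type 1 for Rom1. Abca4, a lipid transporter of the disc rim that clears retinoid adducts, read 11.95, 12.23 and 12.17 in wild type, 12.19 and 11.89 in heterozygotes and 11.84, 12.15 and 12.18 in homozygotes (1449588_at). Its lowest values came from 3 arrays, 1 of each group, and all groups overlapped. Homozygous minus wild type came to -0.059 (SE 0.14, 95% interval -0.37 to 0.26), and 0.051 without homozygous array 1.

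Prom1 encodes prominin-1, a membrane protein of the evaginating discs, and read 13.27, 13.38 and 13.45 in wild type, 13.37 and 13.34 in heterozygotes and 13.21, 13.38 and 13.47 in homozygotes (1419700_a_at). Cdhr1, a photoreceptor cadherin found on nascent discs, read 13.08, 13.04 and 13.20 in wild type, 13.10 and 13.09 in heterozygotes and 13.10, 13.00 and 13.17 in homozygotes (1418304_at). Their ranges over the 8 arrays, 0.26 for Prom1 and 0.21 for Cdhr1, were the smallest among the 11 probe sets. Homozygous against wild type they differed by -0.012 (SE 0.10, 95% interval -0.24 to 0.22) for Prom1 and by -0.024 (SE 0.091, 95% interval -0.23 to 0.19) for Cdhr1. These were the narrowest intervals of the 11.

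Fscn2 encodes retinal fascin, which bundles actin filaments. It varied most among the brighter probe sets, with a range of 0.92. The wild-type arrays read 9.45, 9.29 and 8.98, against 8.94 and 9.74 on heterozygous arrays 1 and 2, and 9.87, 9.22 and 9.66 on homozygous arrays 1, 2 and 3 (1440605_at). Its 3 highest values were on homozygous 1, heterozygous 2 and homozygous 3, the same 3 arrays on which Nxnl1 was lowest, and wild-type array 1 came next. The homozygous mean was 9.58 ± 0.33 (SD, n = 3) against 9.24 ± 0.24 (SD, n = 3) in wild type. This difference of 0.34 (SE 0.24, 95% interval -0.21 to 0.89, limma adjusted p 0.9999) was not called, and homozygous array 2 overlapped with the wild-type arrays. Heterozygous against wild type it was 0.097 (SE 0.27), with -0.30 when heterozygous array 2 was left out and 0.49 when heterozygous array 1 was. Without both arrays whose Nxnl1 went against the label, the homozygous excess over wild type came to 0.52 (SE 0.17, limma p 0.0224 unadjusted and 0.976 adjusted). In that fit 1 of the 11 probe sets, Fscn2, had an unadjusted p under 0.05, against 2.01% of all probe sets. Homozygous minus heterozygous went from 0.24 (SE 0.27) to 0.82 with heterozygous array 1 alone in its group, so no p-value is given for it. With heterozygous array 1 alone left out it was -0.15. The arrays left out were chosen by their Nxnl1 level with earlier results of these data known, and 2 homozygous and 1 heterozygous array remained.

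Lens crystallins were high on the same arrays as Fscn2. The lens crystallin Cryaa read 11.72, 10.44 and 10.27 on homozygous 1, heterozygous 2 and homozygous 3, 9.34 on wild-type array 1 and 5.45 to 7.09 on the others. All 4 crystallins of the lens list, Cryaa, Cryba1, Crygb and Crygd, were higher on these 4 arrays than on any other, and the other 4 lens markers stayed within 4.05 and 6.28 on all 8 arrays. Microglial markers (5 of 5) had a log2 summed level of 9.07 to 9.57 in wild type, 9.21 to 9.75 in heterozygotes and 9.29 to 9.76 in homozygotes, with the highest values on homozygous 1, heterozygous 2, wild type 1 and homozygous 3. By root mean square difference between centred profiles over the 8 arrays, the gene most like Fscn2 was Vim, the intermediate filament of Müller glia that lens cells also make (0.091 on the log2 scale), followed by Npl (0.092). Vim read 10.61, 10.37 and 10.13 in wild type, 9.98 and 10.64 in heterozygotes and 10.78, 10.34 and 10.66 in homozygotes. Vim was picked for this likeness, and the summed level of the Müller glia list (5 of 5 markers) did not follow it. In log2 that sum was 13.96 to 14.03 in wild type, 13.90 to 14.01 in heterozygotes and 13.90 to 14.06 in homozygotes. The sum was highest on homozygous array 2 and is weighted to Glul, the marker of highest level in the list. Glul, the glutamine synthetase of Müller glia, was lowest on homozygous array 1 (12.98) and highest on homozygous array 2 (13.34). Slc1a3 was highest on wild-type array 1 (9.68), homozygous array 3 (9.55) and homozygous array 1 (9.36). Rlbp1 was highest on wild-type array 2 (12.16) and Aqp4 on wild-type array 1 (10.01). The part of lens tissue or microglia in the Fscn2 values was not tested.

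**Figure D2:**
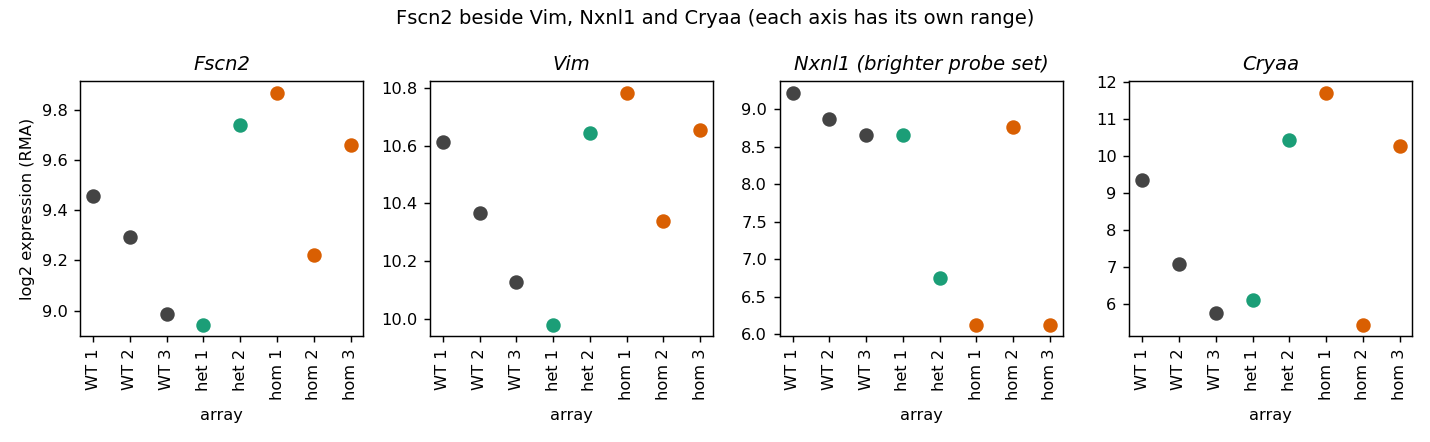
Log2 expression (vertical axes, each with its own range) of Fscn2, Vim, Nxnl1 and Cryaa on the 8 arrays (horizontal axes), coloured by group label. Fscn2, Vim and Cryaa are highest on homozygous 1, where Nxnl1 reads 6.13, and all 3 are above their wild-type array 2 and 3 values on heterozygous 2 and homozygous 3.

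Rp1 encodes a microtubule-associated protein of the axoneme that keeps discs aligned. Its brighter probe set (1424963_at) read 12.40, 12.57 and 12.49 in wild type, 12.37 and 12.44 in heterozygotes and 12.23, 12.58 and 12.58 in homozygotes. Homozygous array 1 was lowest and the groups overlapped. Homozygous minus wild type came to -0.027 (SE 0.12, 95% interval -0.30 to 0.25), and 0.091 without homozygous array 1. The second probe set (1424964_at), at 5.57 to 6.30, lay below the median of all probe sets, 6.19 in mean level. It was lowest on wild-type array 1 (5.57) and homozygous array 1 (5.62), the arrays of lowest actin difference, which were 0.47 and 0.42 below the mean of the 7 others (-0.47 and -0.42). Homozygous minus wild type it stood at -0.15 (SE 0.19), and -0.25 without those 2 arrays. With 1 array left out it ran from -0.36 (without wild-type array 1) to -0.0011 (without wild-type array 3).

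Tulp1 encodes a tubby-like protein needed for transport of proteins to the outer segment. It read 12.75, 13.09 and 13.05 in wild type, 13.11 and 13.12 in heterozygotes and 13.06, 13.06 and 13.22 in homozygotes (1451582_at). Wild-type array 1 was low here too, 0.35 below the mean of the 7 others (-0.35), as was Rom1 by 0.32 (-0.32). The difference was 0.15 (SE 0.11, 95% interval -0.11 to 0.41) for homozygous and 0.16 (SE 0.13) for heterozygous against wild type, and without wild-type array 1 these fell to 0.044 and 0.050. Both heterozygous values lay above all wild-type values, 13.11 being the lower of the pair and 13.09 the highest in wild type. These groups failed to overlap, in either direction, at 14.2% of all probe sets.

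Impg1 encodes a proteoglycan of the interphotoreceptor matrix that surrounds outer segments. Its brighter probe set (1425757_a_at) read 9.32, 9.39 and 9.56 in wild type, 9.04 and 9.42 in heterozygotes and 9.31, 9.40 and 9.39 in homozygotes. Only heterozygous array 1 stood low. The second probe set (1425758_a_at) read 7.99, 8.26 and 9.00 in wild type, 8.16 and 8.92 in heterozygotes and 8.13, 8.90 and 9.00 in homozygotes. It had the widest range of the 11 probe sets, 1.01, and its 4 high and 4 low arrays cut across all 3 groups. Homozygous against wild type the brighter probe set differed by -0.062 (SE 0.12) and the second by 0.26 (SE 0.33), so they disagreed in sign with overlapping intervals, -0.34 to 0.22 and -0.50 to 1.02. With 1 array left out the second ran from 0.051 (without wild-type array 1) to 0.55 (without wild-type array 3). Heterozygous against wild type they were at -0.20 (SE 0.14) and 0.13 (SE 0.37). Without both arrays whose Nxnl1 went against the label, the values were -0.39 and -0.25. That fit leaves the low heterozygous array 1 alone in its group, so no p-value is given. Without heterozygous array 1 they were -0.0052 and 0.51, so that array set the difference of the brighter probe set.

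**Figure D3:**
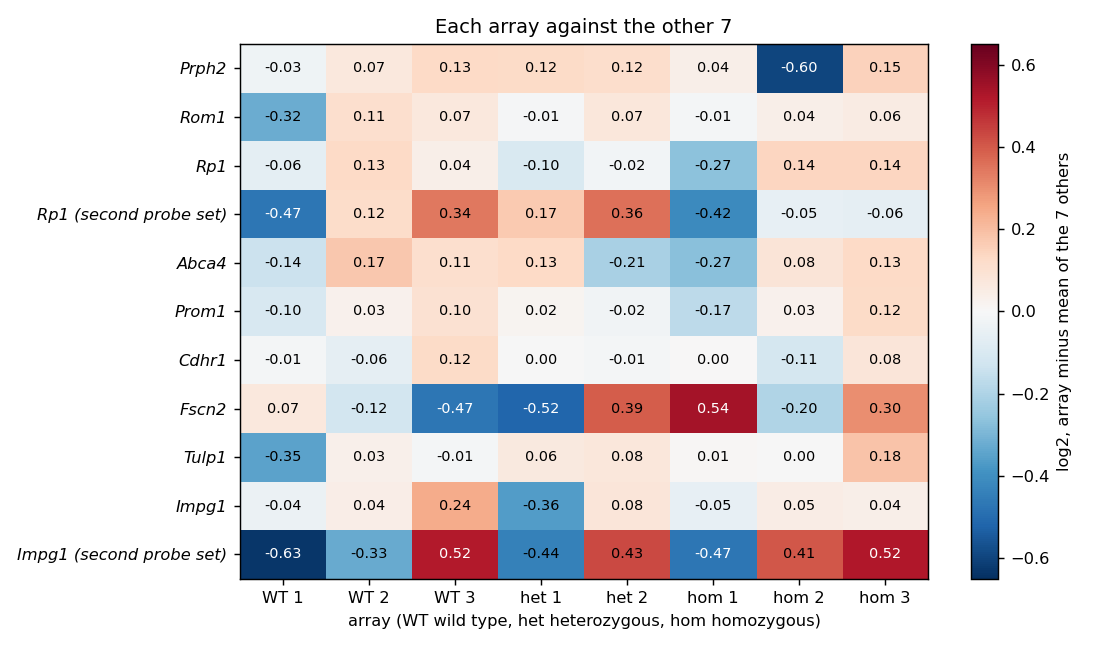
Difference of each array from the mean of the 7 others (colour and printed value, log2) for the 11 probe sets (rows) and 8 arrays (columns). The values farthest from 0 are the second Impg1 probe set on wild-type array 1 (-0.63), Prph2 on homozygous array 2 (-0.60) and Fscn2 on homozygous array 1 (0.54). On the other 7 arrays Prph2 lies between -0.026 and 0.15.

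Across the 9 genes at their brighter probe sets, homozygous array 3 was above the mean of the 7 others at all 9 genes (median 0.13), and wild-type array 1 below it at 8 of 9 (median -0.062), the exception being Fscn2. These were also the arrays with the highest and the lowest summed rod markers, 16.16 and 16.02. In bulk tissue, fewer photoreceptors and less RNA per photoreceptor cannot be told apart. Wild-type array 1 also had the lowest actin difference (-1.81) and a log2 summed lens level of 12.12. Homozygous array 3 had -1.26 and 11.07. The part of RNA quality or lens tissue in these medians was not tested.

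No member was called by limma in any comparison. The question in the first comparison was, by label, what loss of Nxnl1 does to the retina, though Nxnl1 read 8.76 on homozygous array 2. For homozygous against wild type, limma called 0 of the 11 probe sets, as it did 0 of all 45037 (0%). At an unadjusted p under 0.05 there were 0 of 11, against 0.913% of all probe sets, and the smallest member p was 0.196 for Fscn2. The arrays of the groups overlapped at all 11, against 4.47% of all probe sets where they did not. Of the 9 genes 3 were above 0 (Fscn2, Tulp1 and Rom1) and 6 below, with a median of -0.024. Over all 18193 genes 60.5% were above 0 and the median was 0.024. The members' median turned positive when a single array was left out: to 0.060 without homozygous array 1, 0.022 without homozygous array 2 and 0.023 without wild-type array 3. Without both arrays whose Nxnl1 went against the label it was 0.022, with 5 of 9 above 0.

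For heterozygous against wild type, which by label asks about a single null allele, 0 of the 11 had an unadjusted limma p under 0.05, against 1.15% of all probe sets. Nxnl1 itself read 8.65 and 6.75 on heterozygous arrays 1 and 2, against 8.65 to 9.22 in wild type. The groups failed to overlap at 1 of 11 (Tulp1, higher), against 14.2% of all probe sets. Of the 9 genes 4 were above 0, with a median of -0.0087, against 47.6% and -0.0067 over all genes. For homozygous against heterozygous, 0 of the 11 had an unadjusted limma p under 0.05, against 0.899% of all probe sets. The groups failed to overlap at 1 of 11, the second probe set of Rp1 at -0.38 (SE 0.21, unadjusted limma p 0.0998), against 12.4% of all probe sets. Of the 9 genes 4 were above 0, with a median of -0.0029, against 63.7% and 0.035 over all genes. These comparisons share arrays pairwise, so their values are not independent.

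**Figure D4:**
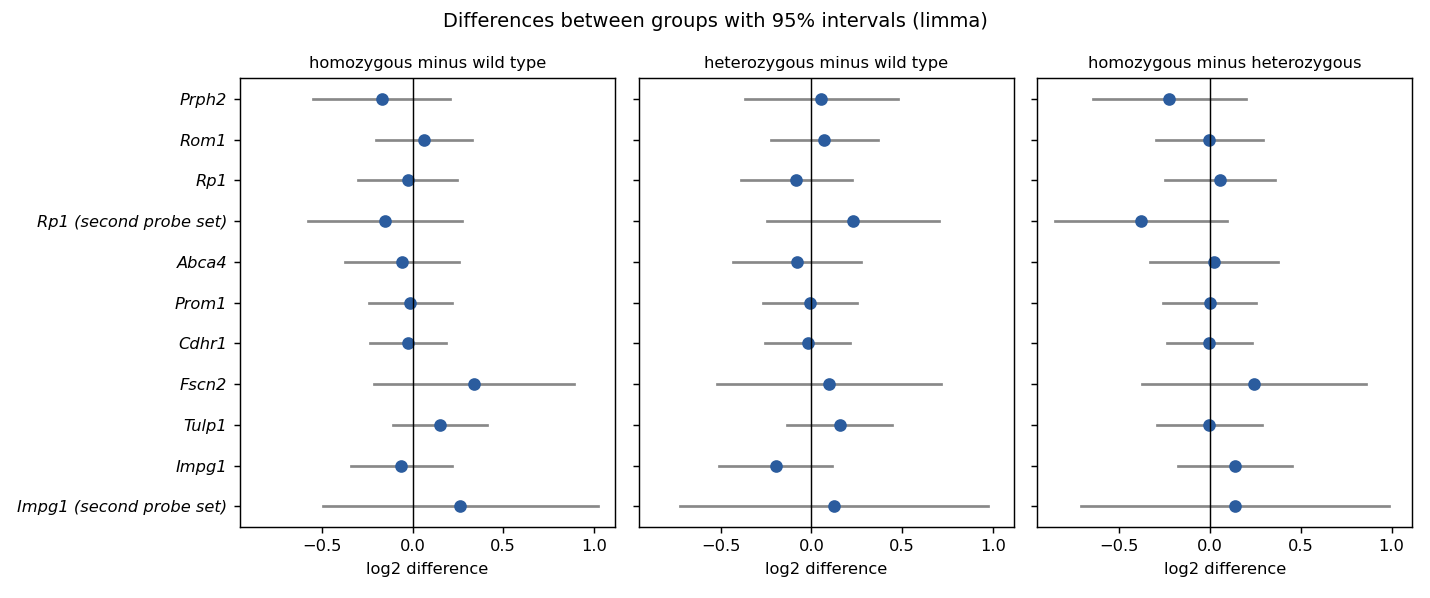
Log2 differences between groups (horizontal axes, points) with 95% intervals from limma (lines) for the 11 probe sets, in 3 comparisons. Every interval crosses 0, and the widest in each comparison belongs to the second probe set of Impg1 (-0.50 to 1.02 for homozygous minus wild type, -0.72 to 0.97 for heterozygous minus wild type and -0.71 to 0.98 for homozygous minus heterozygous).

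Other genes of the outer segment were read from lists chosen by role. Of the disc, axoneme and matrix genes 17 of 20 were measured, and 0 of 17 passed the limma test for homozygous against wild type, with 6 above 0 and 11 below and a median of -0.052. Those of smallest p were Prcd, a disc protein, at -0.16 (SE 0.10), the tubby-like Tulp3 at 0.17 (SE 0.14), the actin regulator Wasf3 at -0.40 (SE 0.40) and the ciliary protein Rpgr at -0.14 (SE 0.15). Wasf3 read 5.80, 6.43 and 7.47 in wild type, 6.54 and 6.81 in heterozygotes and 5.77, 6.67 and 6.05 in homozygotes. Its spread within wild type was wider than its difference between groups. Without wild-type array 1 and homozygous array 1 the list had 11 of 17 above 0 and a median of 0.030, so its balance of signs rested on those arrays. Of the membrane partners, channels and enzymes of the disc and plasma membrane, 9 of 12 were measured and 0 of 9 passed, with 7 above 0 and a median of 0.050. They were led by the channel subunit Cngb1 at 0.13 (SE 0.11), the retinol dehydrogenase Rdh12 at 0.11 (SE 0.10), the phosphodiesterase subunit Pde6g at 0.074 (SE 0.079) and the guanylate cyclase Gucy2e at -0.27 (SE 0.38). Cngb1 was lowest on wild-type array 1 and lay between 11.27 and 11.46 on the other 7 arrays. Most genes of this list were lowest on that array too, Rdh12 (12.04) and Gucy2e among them, but not Pde6g. A low value there was thus not particular to Cngb1 and Rom1. Gucy2e read 5.39, 6.08 and 7.17 in wild type, a spread wider than its difference between groups.

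The genes of most similar profile to Prph2 were Ankrd49 (root mean square difference 0.080) and Dnaaf4 (0.082), which read 6.07 and 6.04 on homozygous array 2 and at least 6.47 and 6.38 on the 7 others. For the brighter probe set of Impg1 they were Fbln7 (0.034) and 9130016M20Rik (0.043), both near the lower end of the scale. These are the closest of 18193 genes over 8 arrays, and likeness of profile here is a description.

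**Figure D5:**
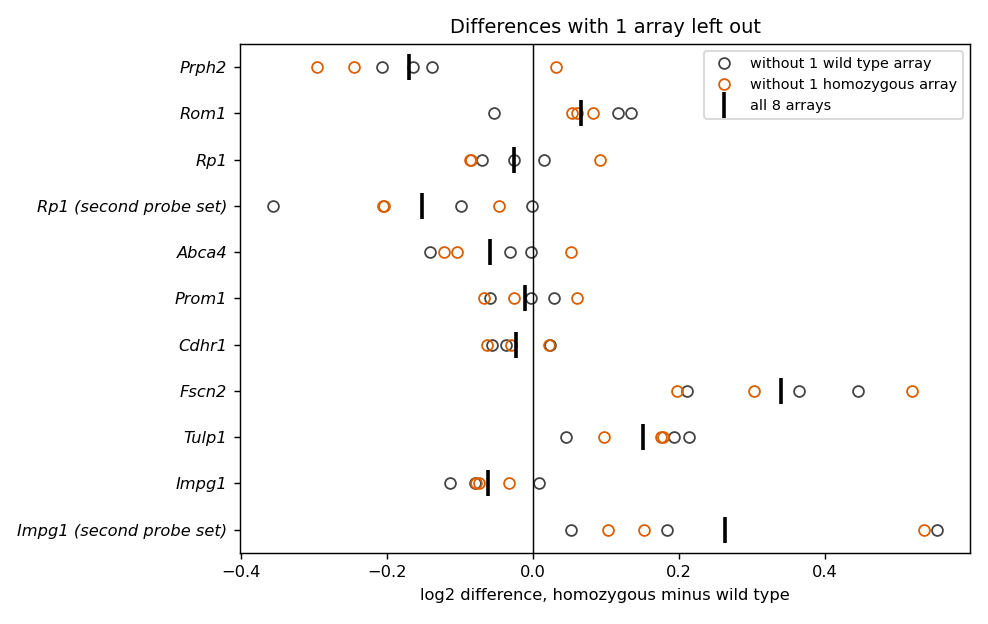
Log2 difference of homozygous minus wild type (horizontal axis) for the 11 probe sets with all 8 arrays (bars) and with 1 wild-type or homozygous array left out (open circles). At 7 of 11 probe sets the sign changes with 1 array, and Fscn2 stays between 0.20 and 0.52.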

How the data were processed

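The authors deposited log2 expression values for 8 arrays, 1 value per probe set, made with RMA per the submitters' processing notes. As a method it corrects background, quantile-normalizes arrays and summarises probes. Its version is not given in the sources used here. Of the 9 samples that the series design counts, 8 were analysed and the remaining one was not analysed here. Quantile normalization removes differences in total signal, so changes are relative to the bulk of transcripts. After leaving out 64 Affymetrix controls, 45037 probe sets were tested, of which 34945 had 1 symbol, 932 several and 9160 none. Symbols came from the platform annotation, updated through gene identifiers of GRCm38.p6. No filter on low values was used, and all 11 member probe sets entered. The number of arrays limits precision.

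Group means of the 8 arrays were fitted with limma 3.58.1 in R 4.3.3 (5 residual degrees of freedom), with two-sided moderated tests adjusted by the Benjamini-Hochberg method over all probe sets, threshold 0.05. SE and 95% intervals are moderated. A gene is represented by its brightest probe set. The fit was tested on simulated data with independent spread at each probe set and array. For homozygous against wild type it recovered 68% of changes of 1 log2 unit and 98% of changes of 2, with 9 false among 175 calls. Smaller changes, and shifts shared by many probe sets of an array, were not simulated. On the arrays themselves the same comparison called 0 of 45037 probe sets. Nxnl1 at -1.91 and Eif2s3y at 2.92 (log2) were among the genes not called. Whether these percentages hold for the arrays themselves was not tested. All 9 genes were named at every probe set, with up to 4 genes of smallest p per other list and the 2 genes of nearest centred profile for the 3 members of widest range. The members and lists were chosen with earlier results of these data known. Alternatives were equal medians, repeated quantile normalization, a low-value filter, other variance models, array weights, 2 groups only, a replicate block, an actin covariate and leaving out arrays.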

Additional observations from a re-analysis of the deposited data

How the results depend on the processing

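No member probe set passed the adjusted threshold in any refit. The counts of called probe sets were 0 under every alternative that kept all arrays or left out 2, and 0 to 1 with 1 array left out for homozygous and for heterozygous against wild type, the single call in each coming without wild-type array 3. Whether the replicate numbers pair the arrays was not settled. Deviations of same-numbered wild-type and homozygous arrays correlated at 0.616, 0.23 and -0.035, and those of different-numbered ones at -0.642 to 0.519. The replicate block called 0 probe sets in each comparison, as did the fit without it, so these counts cannot decide on pairing. The cause of each change below was not tested.

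The members' median for homozygous against heterozygous went from -0.0029 to 0.064 with the actin covariate, 0.075 with array weights and 0.069 without wild-type array 1 and homozygous array 1, the arrays of lowest actin difference. With 1 array left out it ran from -0.043 to 0.069, and for homozygous against wild type from -0.068 to 0.060.

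Of 360 refits of single probe sets without leave-one-out, 44 changed sign, all from values of 0.17 or less in size. For homozygous against wild type, Cdhr1 was 0.0052 with repeated quantile normalization. With array weights Cdhr1 was 0.078, Prom1 0.054 and Rom1 -0.026. Without the arrays of lowest actin difference Prom1 was 0.012, Rom1 -0.036 and Rp1 0.048. Without the arrays whose Nxnl1 goes against the label Cdhr1 was 0.022 and Prph2 0.032.

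For heterozygous against wild type, Cdhr1 was 0.026 and Prom1 0.0090 with repeated quantile normalization, and 0.023 and 0.040 with the replicate block. Array weights gave Cdhr1 0.032 and Rom1 -0.038. The actin covariate gave the second Impg1 probe set -0.21 and Rom1 -0.015, and leaving out the arrays of lowest actin difference -0.086 and -0.048. Without the arrays whose Nxnl1 goes against the label, Abca4 was 0.071, Fscn2 -0.30, the second Impg1 probe set -0.25 and Prom1 0.0077.

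For homozygous against heterozygous, equal array medians gave Cdhr1 0.040, Prom1 0.041, Rom1 0.038 and Tulp1 0.039, and array weights gave 0.046, 0.075, 0.012 and 0.064. The actin covariate gave Prom1 0.064, Rom1 0.084 and Tulp1 0.061, and leaving out the arrays of lowest actin difference 0.069, 0.011 and 0.019. Abca4 was -0.015 with repeated quantile normalization. The replicate block gave Abca4 -0.026 and the second Impg1 probe set -0.089. Without the arrays whose Nxnl1 goes against the label Abca4 was -0.18, Cdhr1 0.038, Rom1 0.024 and Tulp1 0.028.

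Of 176 refits that left out 1 array, 35 changed sign. For homozygous against wild type the ranges were -0.14 to 0.051 for Abca4, -0.063 to 0.023 for Cdhr1, -0.11 to 0.0082 for Impg1, -0.068 to 0.060 for Prom1, -0.30 to 0.032 for Prph2, -0.054 to 0.13 for Rom1 and -0.086 to 0.091 for Rp1. For heterozygous against wild type they were -0.23 to 0.071 for Abca4, -0.053 to 0.027 for Cdhr1, -0.30 to 0.49 for Fscn2, -0.25 to 0.51 for the second Impg1 probe set, -0.057 to 0.032 for Prom1 and -0.048 to 0.14 for Rom1. For homozygous against heterozygous they were -0.13 to 0.17 for Abca4, -0.043 to 0.041 for Cdhr1, -0.15 to 0.64 for Fscn2, -0.057 to 0.33 for Impg1, -0.24 to 0.52 for its second probe set, -0.059 to 0.069 for Prom1, -0.041 to 0.029 for Rom1, -0.0044 to 0.17 for Rp1 and -0.058 to 0.023 for Tulp1.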
